A study of Mus musculus with 8 samples.

Results

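The Wnt genes described here are 40 genes of mouse that encode secreted Wnt ligands (15), Frizzled receptors (10), secreted inhibitors (6), R-spondins (3) and transcriptional targets or feedback genes of the pathway (6). They were taken by gene symbol from the deposited expression tables, which hold 24306 usable symbols, and all 40 were found. The samples are RNA of the mouse stem cell line E14 at the embryonic stem cell (ESC) stage and after differentiation to neural progenitor cells (NPC). At each stage wild-type cells stand beside Wdr68 knockout cells, and the tables list Wdr68 as Dcaf7. WDR68, made of WD40 repeats, is named in the series title as essential to a Polycomb complex containing AUTS2. The 4 groups were Wdr68 KO-NPC, E14-NPC (wild type), Wdr68 KO-ESC and E14-ESC (wild type), with 2 libraries each. Both ESC groups were grown in serum with LIF, the MEK inhibitor PD0325901 and the GSK3 inhibitor CHIR99021, on feeder cells or gelatin. GSK3 inhibition is known to mimic Wnt stimulation, so both ESC groups carried an agent that acts on the pathway, and neither inhibitor is listed for the differentiation medium. Both NPC groups came from hanging drops of 500 cells kept for 2 days, then in suspension for another 2 days and finally in retinoic acid for 4 days. The labels do not say whether the knockout cells are 1 clone, or whether the 2 libraries of a group came from separate cultures, so the p-values cover the spread among these libraries alone, and that spread may be technical.

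Wnt proteins are secreted, lipid-carrying signals that bind a Frizzled receptor together with an LRP co-receptor. In the canonical branch this stops a complex of Axin, APC and GSK3 from destroying beta-catenin, which then enters the nucleus and acts with TCF and LEF factors on target genes, among them genes that dampen the pathway again. In other branches Wnt proteins steer cell polarity and movement without beta-catenin. In the embryo the pathway patterns the body axis and the neural tube, keeps dorsal and hindmost progenitors dividing and favours mesoderm, and in culture its activation helps to maintain the ESC state.

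Levels are in FPKM, the fragments counted on a gene set against its length and the size of the library, and tests used limma on log2(FPKM + 1) over 13318 genes, so that the change of a gene with low FPKM is understated. A gene was called at an adjusted p under 0.05, and changes are given as log2 ± standard error. Depth, read from the deposited error intervals, was 5996677 to 7942644 fragments, and the median gene near 1 FPKM had 21.7 to 29.0 fragments, depending on the library. Dcaf7 stood at 8.36 and 8.99 FPKM in knockout NPC, 27.2 and 29.6 FPKM in wild-type NPC, 2.80 and 2.26 FPKM in knockout ESC, and 12.4 and 14.2 FPKM in wild-type ESC. It was lower in the knockout at both stages, by -1.60 ± 0.12 on the log2 scale in NPC (adjusted p = 1.3e-04) and -2.02 ± 0.12 in ESC (adjusted p = 0.0011), with some RNA left. Pou5f1, which defines ESC, stood at 1.95 and 1.40 FPKM in knockout NPC, 2.80 and 1.72 FPKM in wild-type NPC, 841 and 859 FPKM in knockout ESC, and 838 and 787 FPKM in wild-type ESC. Of 9 tested markers of neural progenitors 8 were lower in knockout than in wild-type NPC. Pax6 stood at 2.27 and 3.10 FPKM in knockout NPC, against 14.3 and 14.4 FPKM in wild-type NPC, and Sox2 at 1.15 and 2.47 FPKM, against 30.4 and 29.9 FPKM. The other marker, Nes, was not called (adjusted p = 0.0786 in limma), at 25.4 and 22.4 FPKM in knockout NPC, against 29.8 and 30.2 FPKM in wild-type NPC. The name NPC is therefore kept for the knockout libraries only as the label they carry.

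Of the 40 genes, 34 passed the filter, which asks for 2 or more libraries with 1 FPKM or more, and were tested. The 6 that did not were the ligands Wnt2, Wnt3a, Wnt7a, Wnt8a and Wnt10a and the inhibitor Dkk1. Wnt3a, the ligand that drives the tail bud, was the highest of these in ESC, at 0 and 0.158 FPKM in knockout NPC, 1.07 and 0.689 FPKM in wild-type NPC, 0.876 and 0.683 FPKM in knockout ESC, and 0.880 and 0.908 FPKM in wild-type ESC. Of the 34, 24 had no ESC library at an FPKM of 1, so they were tested because of their level in NPC. Another limit of the filter is that 5 genes passed through 1 group alone. These were Wnt2b, Wnt7b, Frzb and Nkd2 through wild-type NPC and Rspo2 through knockout NPC. In such a gene the filter itself favours a difference between the groups.

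The promoters of members on which the results below turn are shown first. Windows of 300 bases, from 250 before to 50 after a transcript start, were taken from RefSeq (GRCm38.p6), which is not the build of the expression tables (mm9). A window was at hand for 28 of the 40 genes, with 35 windows in all. Axin2 and Nkd1 are feedback genes that fell in knockout NPC, Sp5 is a target that was not called there, and Wnt1 and Fzd10 are the members with the largest falls. Capitals mark a match to the TCF/LEF motif CTTTGAT on either strand.
Axin2: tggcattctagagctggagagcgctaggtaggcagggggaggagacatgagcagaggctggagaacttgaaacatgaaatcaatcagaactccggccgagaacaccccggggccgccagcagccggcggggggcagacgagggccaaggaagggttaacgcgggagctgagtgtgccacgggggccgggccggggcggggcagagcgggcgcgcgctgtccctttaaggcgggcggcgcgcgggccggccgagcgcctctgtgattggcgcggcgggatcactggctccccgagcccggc
Nkd1: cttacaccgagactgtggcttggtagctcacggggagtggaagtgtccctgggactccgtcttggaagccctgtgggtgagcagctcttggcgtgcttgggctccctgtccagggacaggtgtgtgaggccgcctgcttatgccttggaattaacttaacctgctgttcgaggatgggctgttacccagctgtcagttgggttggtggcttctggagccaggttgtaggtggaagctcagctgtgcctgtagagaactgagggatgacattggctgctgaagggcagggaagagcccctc
Sp5: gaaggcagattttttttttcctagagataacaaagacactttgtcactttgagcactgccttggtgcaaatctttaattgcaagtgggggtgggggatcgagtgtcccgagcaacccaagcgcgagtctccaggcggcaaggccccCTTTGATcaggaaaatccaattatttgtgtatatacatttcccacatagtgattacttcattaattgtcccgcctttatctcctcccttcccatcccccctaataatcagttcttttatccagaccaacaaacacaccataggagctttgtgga
Wnt1: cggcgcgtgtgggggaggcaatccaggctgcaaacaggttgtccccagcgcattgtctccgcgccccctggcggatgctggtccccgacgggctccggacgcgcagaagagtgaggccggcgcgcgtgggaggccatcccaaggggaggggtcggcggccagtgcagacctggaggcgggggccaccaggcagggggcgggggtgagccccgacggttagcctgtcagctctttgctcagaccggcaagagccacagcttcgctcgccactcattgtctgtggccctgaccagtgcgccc
Fzd10: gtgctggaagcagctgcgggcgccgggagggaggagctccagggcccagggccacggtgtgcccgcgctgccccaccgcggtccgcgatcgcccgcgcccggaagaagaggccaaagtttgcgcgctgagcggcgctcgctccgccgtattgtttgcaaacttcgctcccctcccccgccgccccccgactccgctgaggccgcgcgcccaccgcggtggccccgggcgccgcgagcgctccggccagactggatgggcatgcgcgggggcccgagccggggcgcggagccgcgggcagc
These windows lie on the plus strand at chr11:108920099-108920398 (Axin2), chr8:88527383-88527682 (Nkd1), chr2:70474673-70474972 (Sp5), chr15:98789607-98789906 (Wnt1) and chr5:128600856-128601155 (Fzd10). Only the Sp5 window of these 5 holds CTTTGAT, starting at position -104 from the transcript start. Its reverse complement is ATCAAAG, and the related motif CTTTGAA with its reverse complement TTCAAAG was searched too. CTTTGAT occurred in 3 of the 35 windows of the Wnt genes (8.57%), in those of Wnt5b, Wnt11 and Sp5, against 3.73% of 32851 windows of all genes. CTTTGAA occurred in 1 of the 35 (Dkk1), against 5.14% of all windows. Either motif was present in 11.4% of the members' windows and in 8.65% of all windows. The 4 windows of Lef1, the 2 of Tcf7 and the 1 of Nkd2, targets described below, held neither motif. The members' windows varied in base composition, with 43.7% to 86.3% GC. Their median GC content was 67.3%, with a median of 26 CpG dinucleotides, against 61.0% and 20 for the genes that passed the expression filter and 52.7% and 7 for all genes, a description with no test. The printed windows of Fzd10 (77.7% GC), Wnt1 (70.7% GC) and Axin2 (70.0% GC) are GC-rich, that of Nkd1 (58.3% GC) is less so, and Sp5 (45.0% GC) lies under the median of all genes. Nkd1 has 2 start sites in the annotation of the expression data, but only 1 window was at hand.

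**Figure D1:**
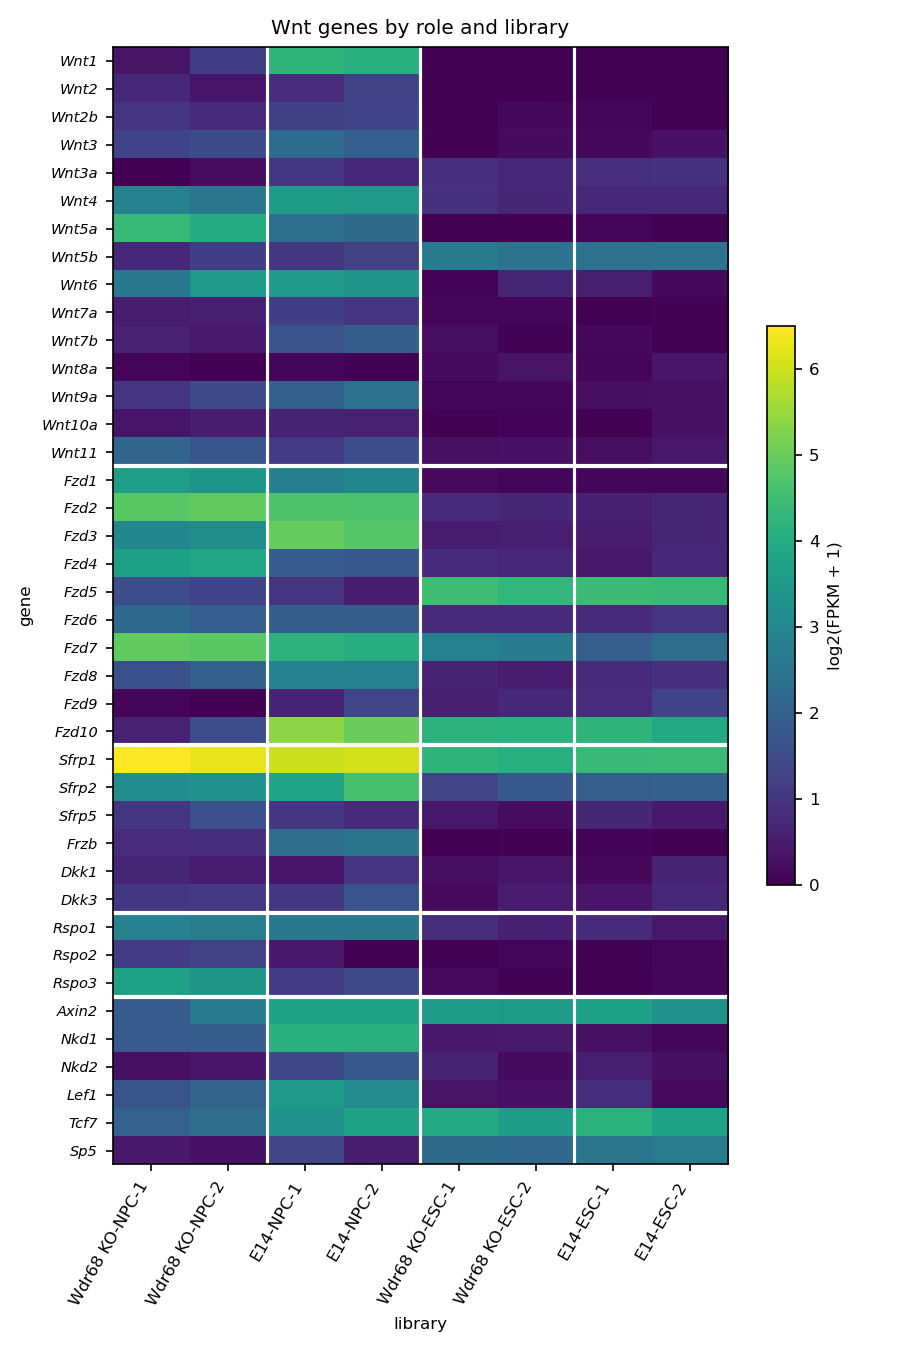
Level of each of the 40 Wnt genes (down) in each of the 8 libraries (across: knockout NPC, wild-type NPC, knockout ESC, wild-type ESC), as log2(FPKM + 1) in colour, with white lines between ligands, Frizzled receptors, secreted inhibitors, R-spondins and targets. Most ligands are dark in all 4 ESC libraries, Wnt5a, Fzd4 and Rspo3 are brighter in knockout than in wild-type NPC, and Wnt1, Fzd3, Fzd10 and Nkd1 are darker.

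Knockout and wild-type NPC were compared to find how the knockout bears on differentiated cells. Of the 6 targets and feedback genes 5 fell, among the ligands Wnt1 fell and Wnt5a rose, Frizzled receptors changed in both directions, and 2 of the 3 R-spondins rose. Of the 34 genes tested, 24 passed, 8 higher and 16 lower in knockout NPC. Over all genes tested, 27.4% passed, 14.7% higher and 12.7% lower. The median log2 change was -0.46 over the 34 genes and 0.05 over all genes tested. Without the 5 genes that passed the filter through 1 group, 20 of the called genes were left. The counts by role, here and below, include such genes: Wnt7b, Frzb and Nkd2 among the falls and Rspo2 among the rises. In bulk samples such as these, fewer cells of a type and less RNA per cell cannot be told apart.

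**Figure D2:**
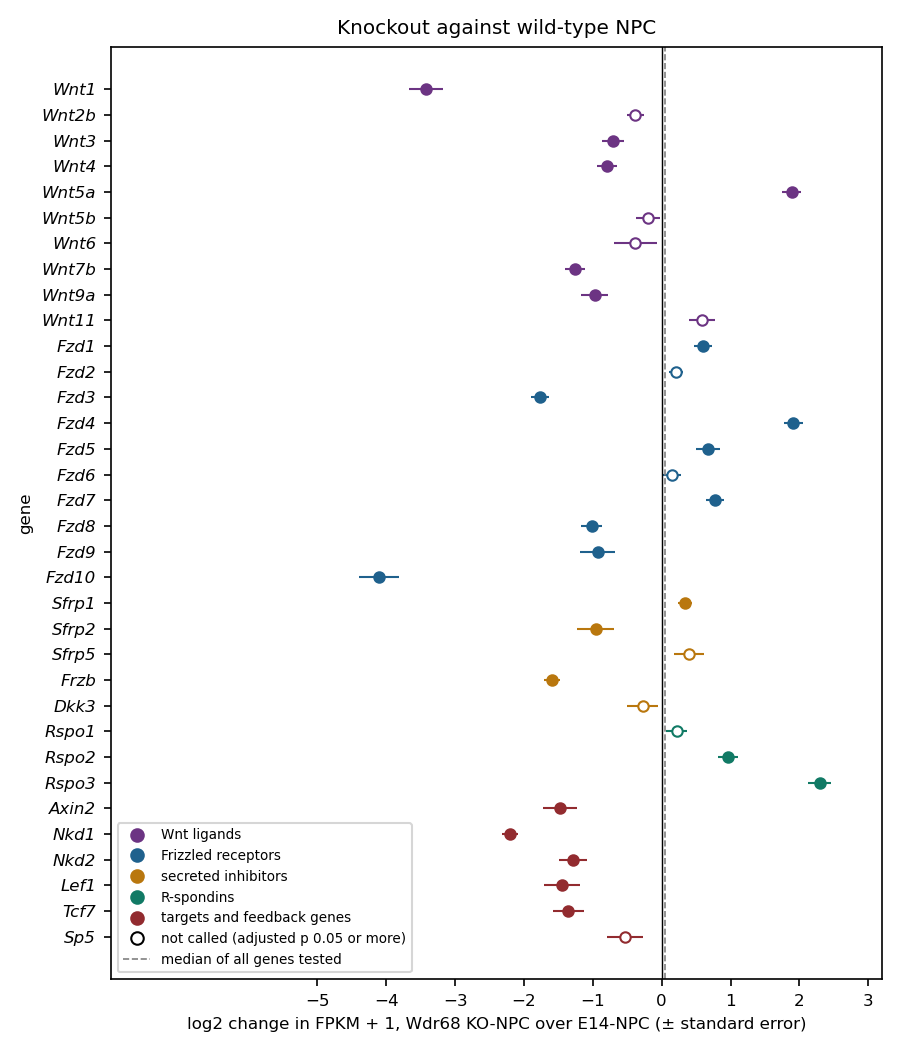
Log2 change in FPKM + 1 of the 34 tested Wnt genes, knockout NPC over wild-type NPC, with bars of ± 1 standard error from limma; colours mark the role, open circles genes that were not called, and the dashed line the median of all genes tested (0.05). Fzd10 (-4.10) and Wnt1 (-3.42) lie farthest left and Rspo3 (2.29), Fzd4 (1.91) and Wnt5a (1.89) farthest right.

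Among the ligands, 1 rose and 5 fell of the 10 tested. Wnt1, the ligand of the dorsal neural tube and of the border between midbrain and hindbrain (chromosome 15, 98620288 to 98624261, mm9), stood at 0.278 and 1.30 FPKM in knockout NPC, against 18.2 and 16.6 FPKM in wild-type NPC. It was listed at 0 in all 4 ESC libraries. The knockout NPC values rested on 7.0 and 34.2 implied fragments, against 487 and 323 in wild-type NPC (log2 change -3.42 ± 0.25, adjusted p = 1.29e-04). Wnt5a, which signals mainly without beta-catenin in the lengthening of the body axis and limbs, went the other way. It stood at 19.4 and 15.4 FPKM in knockout NPC, against 4.12 and 3.77 FPKM in wild-type NPC, a 4.42-fold ratio of means (log2 change 1.89 ± 0.14, adjusted p = 1.32e-04).

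Wnt7b, a ligand of the developing forebrain and lung, stood at 0.516 and 0.381 FPKM in knockout NPC and 2.16 and 2.80 FPKM in wild-type NPC (log2 change -1.26 ± 0.14, adjusted p = 8.29e-04). Wnt4, best known from kidney and gonad, stood at 6.32 and 4.87 FPKM in knockout NPC, against 10.6 and 10.2 FPKM in wild-type NPC (-0.80 ± 0.15, adjusted p = 0.00722). Both were called lower in knockout NPC, Wnt7b after passing the filter through wild-type NPC alone, which favours such a fall. Wnt3, the ligand needed to start gastrulation, stood at 1.48 and 1.80 FPKM in knockout NPC and 3.84 and 2.82 FPKM in wild-type NPC (-0.71 ± 0.16, adjusted p = 0.0154). Wnt9a, active in joints and blood stem cells, stood at 1.02 and 1.78 FPKM in knockout NPC and 3.05 and 4.36 FPKM in wild-type NPC (-0.97 ± 0.19, adjusted p = 0.01). Both calls hung on single libraries: that of Wnt3 was lost without wild-type NPC library 1 (adjusted p = 0.0575) or knockout NPC library 1 (adjusted p = 0.0811), and that of Wnt9a without wild-type NPC library 2 (adjusted p = 0.0516) or knockout NPC library 1 (adjusted p = 0.0501).

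The other 4 tested ligands did not pass. Wnt6 stood at 5.17 and 10.2 FPKM in knockout NPC and 10.3 and 9.35 FPKM in wild-type NPC (log2 change -0.38 ± 0.32, adjusted p = 0.433), with the 2 knockout libraries far apart and groups that overlapped. Wnt11, which guides cell movements at gastrulation, stood at 3.36 and 2.31 FPKM in knockout NPC and 1.18 and 1.91 FPKM in wild-type NPC (0.59 ± 0.19, adjusted p = 0.0598). Whether Wnt11 passed turned on single libraries: it did without wild-type NPC library 2 or knockout NPC library 2. Wnt2b stood at 0.996 and 0.717 FPKM in knockout NPC and 1.36 and 1.46 FPKM in wild-type NPC (-0.38 ± 0.12, adjusted p = 0.0548), and passed without knockout NPC library 1 (adjusted p = 0.0464). Wnt5b, a close relative of Wnt5a, had 0.675 and 1.26 FPKM in knockout NPC and 1.09 and 1.38 FPKM in wild-type NPC (-0.20 ± 0.17, adjusted p = 0.457). Its annotated span overlaps Fbxl14, which held 12.6 to 14.2 FPKM in all 8 libraries, and whether counting used strand is not given in the sources used here.

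FPKM is scaled to length, so levels of the ligands can be set side by side. The summed FPKM of the 15 ligands was 40.7 and 41.3 in knockout NPC, against 59.6 and 58.2 in wild-type NPC. Wnt5a made up 47.7% and 37.3% of this sum in knockout NPC, against 6.91% and 6.48% in wild-type NPC. Wnt1 made up 0.682% and 3.15% in knockout NPC, against 30.6% and 28.5% in wild-type NPC. The ligand with the highest FPKM was thus Wnt5a in both knockout NPC libraries and Wnt1 in both wild-type NPC libraries.

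The Frizzled receptors split evenly, with 4 higher, 4 lower and 2 not called of 10. Fzd10, a receptor of the dorsal neural tube, stood at 0.525 and 1.94 FPKM in knockout NPC, against 40.2 and 31.1 FPKM in wild-type NPC, 16.9 and 16.7 FPKM in knockout ESC, and 17.6 and 14.3 FPKM in wild-type ESC. Its RNA was low in knockout NPC alone (log2 change -4.10 ± 0.29, adjusted p = 1.12e-04, against wild-type NPC). Fzd3, a receptor for axon guidance and planar polarity, stood at 6.98 and 8.36 FPKM in knockout NPC and 30.1 and 26.7 FPKM in wild-type NPC (-1.76 ± 0.13, adjusted p = 1.58e-04). Fzd8, a receptor of the forebrain, stood at 2.14 and 3.08 FPKM in knockout NPC and 6.34 and 6.10 FPKM in wild-type NPC (-1.01 ± 0.15, adjusted p = 0.00297). These 3 receptors were called lower in knockout NPC.

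Fzd4, which also serves Norrin in retinal vessels, stood at 12.0 and 13.4 FPKM in knockout NPC, against 2.72 and 2.52 FPKM in wild-type NPC, a 4.83-fold ratio of means (log2 change 1.91 ± 0.14, adjusted p = 1.18e-04). Fzd7 stood at 29.2 and 27.7 FPKM in knockout NPC and 17.0 and 15.5 FPKM in wild-type NPC (0.77 ± 0.13, adjusted p = 0.00552). Both were called higher in knockout NPC. Fzd1 stood at 11.4 and 9.26 FPKM in knockout NPC and 5.97 and 6.91 FPKM in wild-type NPC (0.60 ± 0.14, adjusted p = 0.0172). Its call was lost without wild-type NPC library 1 (adjusted p = 0.0772) or knockout NPC library 1 (adjusted p = 0.0856).

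Fzd5 and Fzd9 passed at low levels in NPC. Fzd5, a receptor of the eye and placenta, stood at 1.93 and 1.47 FPKM in knockout NPC and 0.986 and 0.432 FPKM in wild-type NPC (log2 change 0.67 ± 0.18, adjusted p = 0.0306). Fzd9 stood at 0.0903 and 0 FPKM in knockout NPC and 0.548 and 1.55 FPKM in wild-type NPC (-0.93 ± 0.26, adjusted p = 0.0358). Each call was lost when any of 5 libraries was left out: for Fzd5 wild-type ESC 1 or 2, wild-type NPC 2 or knockout NPC 1 or 2 (adjusted p = 0.0511 to 0.152), and for Fzd9 wild-type NPC 2 or any knockout library (adjusted p = 0.0598 to 0.14). Fzd2 and Fzd6 did not pass. Fzd2 stood at 27.7 and 29.4 FPKM in knockout NPC and 24.7 and 24.3 FPKM in wild-type NPC (0.21 ± 0.10, adjusted p = 0.171), and Fzd6 at 3.57 and 2.82 FPKM in knockout NPC and 2.76 and 2.80 FPKM in wild-type NPC (0.15 ± 0.13, adjusted p = 0.47). The summed FPKM of the 10 receptors was 95.5 and 97.3 in knockout NPC and 131 and 118 in wild-type NPC. Fzd2 and Fzd7 held the highest shares in knockout NPC (Fzd7 30.6% and 28.4%, Fzd2 29.0% and 30.2%), while Fzd10 held the highest in wild-type NPC (30.6% and 26.3%).

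Of the 5 secreted inhibitors tested, 1 rose and 2 fell. Frzb, a soluble protein that binds Wnt in place of a Frizzled receptor, stood at 0.760 and 0.801 FPKM in knockout NPC, against 4.02 and 4.76 FPKM in wild-type NPC (log2 change -1.60 ± 0.12, adjusted p = 1.26e-04). It passed the filter through wild-type NPC alone, which favours such a fall. Sfrp1 and Sfrp2 are relatives of Frzb with the same mode of action. Sfrp1, at 89.2 and 75.1 FPKM in knockout NPC and 62.3 and 66.5 FPKM in wild-type NPC, had the highest FPKM of the 40 genes in every NPC library (0.34 ± 0.10, adjusted p = 0.0431). This call was lost when any library other than knockout NPC 2 was left out (adjusted p = 0.0506 to 0.204) and under median-ratio scaling (adjusted p = 0.0736). Sfrp2 stood at 8.14 and 8.74 FPKM in knockout NPC and 12.9 and 23.2 FPKM in wild-type NPC (-0.96 ± 0.27, adjusted p = 0.0367). Its 2 wild-type libraries lay far apart, and its call was lost without wild-type ESC 1 or 2, wild-type NPC 2 or knockout NPC 1 or 2 (adjusted p = 0.0589 to 0.147). Sfrp5 and Dkk3 lay between 0.711 and 2.16 FPKM in all NPC libraries and did not pass (log2 changes 0.39 ± 0.21, adjusted p = 0.225, and -0.28 ± 0.23, adjusted p = 0.43).

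R-spondins bind LGR receptors and keep Frizzled receptors on the cell surface, so that cells respond more strongly to Wnt. Rspo3 stood at 12.2 and 9.92 FPKM in knockout NPC, against 1.17 and 1.75 FPKM in wild-type NPC, a 7.55-fold ratio of means (log2 change 2.29 ± 0.17, adjusted p = 1.21e-04). Rspo2 stood at 1.18 and 1.39 FPKM in knockout NPC and 0.333 and 0.0350 FPKM in wild-type NPC (0.96 ± 0.15, adjusted p = 0.00327). It passed the filter through knockout NPC alone, which favours such a rise. Rspo1 stood at 6.33 and 5.78 FPKM in knockout NPC and 5.03 and 5.11 FPKM in wild-type NPC and did not pass (0.22 ± 0.16, adjusted p = 0.367). The summed FPKM of the 3 genes was 19.7 and 17.1 in knockout NPC, against 6.54 and 6.90 in wild-type NPC. Rspo3 had the highest FPKM of the 3 in knockout NPC and Rspo1 in wild-type NPC.

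**Figure D3:**
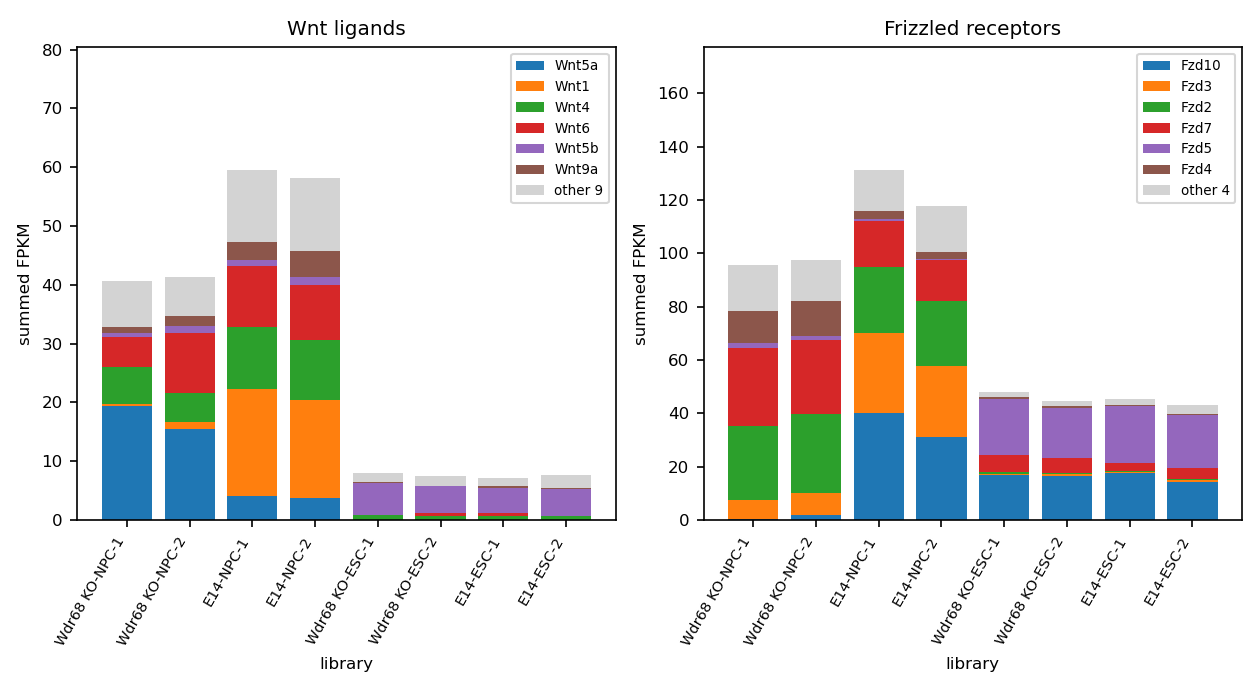
Summed FPKM (vertical axis) of the 15 ligands (left panel) and the 10 Frizzled receptors (right panel) in each library, stacked by gene, with 6 genes of each family coloured as in the legend and the others in grey; knockout NPC is left of wild-type NPC, followed by knockout and wild-type ESC. Wnt5a fills 47.7% and 37.3% of the ligand bars in knockout NPC and Wnt1 30.6% and 28.5% in wild-type NPC, and Fzd10 all but leaves the receptor bars in knockout NPC.

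Of the 6 targets and feedback genes, 5 fell in knockout NPC and none rose. Axin2, which encodes a scaffold of the complex that destroys beta-catenin and is a common readout of the canonical branch, stood at 2.69 and 5.46 FPKM in knockout NPC, 12.5 and 12.7 FPKM in wild-type NPC, 10.8 and 10.7 FPKM in knockout ESC, and 11.6 and 9.20 FPKM in wild-type ESC. Both knockout NPC libraries lay under the 6 others, and they differed between themselves (log2 change -1.48 ± 0.24, adjusted p = 0.00462, against wild-type NPC). Nkd1, whose product binds Dishevelled and dampens the pathway, stood at 2.67 and 2.78 FPKM in knockout NPC, against 16.4 and 15.9 FPKM in wild-type NPC (-2.21 ± 0.12, adjusted p = 4.13e-05). Nkd2, its relative, stood at 0.228 and 0.293 FPKM in knockout NPC, against 1.68 and 2.54 FPKM in wild-type NPC (-1.29 ± 0.20, adjusted p = 0.00383). It passed the filter through wild-type NPC alone, which favours such a fall.

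Lef1 and Tcf7 encode DNA-binding partners of beta-catenin and are themselves targets. Lef1 stood at 2.24 and 3.22 FPKM in knockout NPC and 10.5 and 7.84 FPKM in wild-type NPC (log2 change -1.45 ± 0.26, adjusted p = 0.00614), and with a pseudocount of 0.1 it did not pass (adjusted p = 0.0874). Tcf7 stood at 3.11 and 3.99 FPKM in knockout NPC and 8.79 and 12.7 FPKM in wild-type NPC (-1.36 ± 0.22, adjusted p = 0.00443). Both genes were called lower in knockout NPC in the main fit. Sp5, a zinc-finger factor and direct target whose promoter window is printed above, stood at 0.364 and 0.255 FPKM in knockout NPC and 1.57 and 0.405 FPKM in wild-type NPC. The fall did not pass (-0.54 ± 0.26, adjusted p = 0.177), the wild-type values rested on 36.2 and 7.0 implied fragments, and Sp5 passed without wild-type NPC library 2 (adjusted p = 0.0109). The summed FPKM of the 6 genes was 11.3 and 16.0 in knockout NPC, 51.5 and 52.1 in wild-type NPC, 30.5 and 26.1 in knockout ESC, and 34.9 and 27.7 in wild-type ESC.

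**Figure D4:**
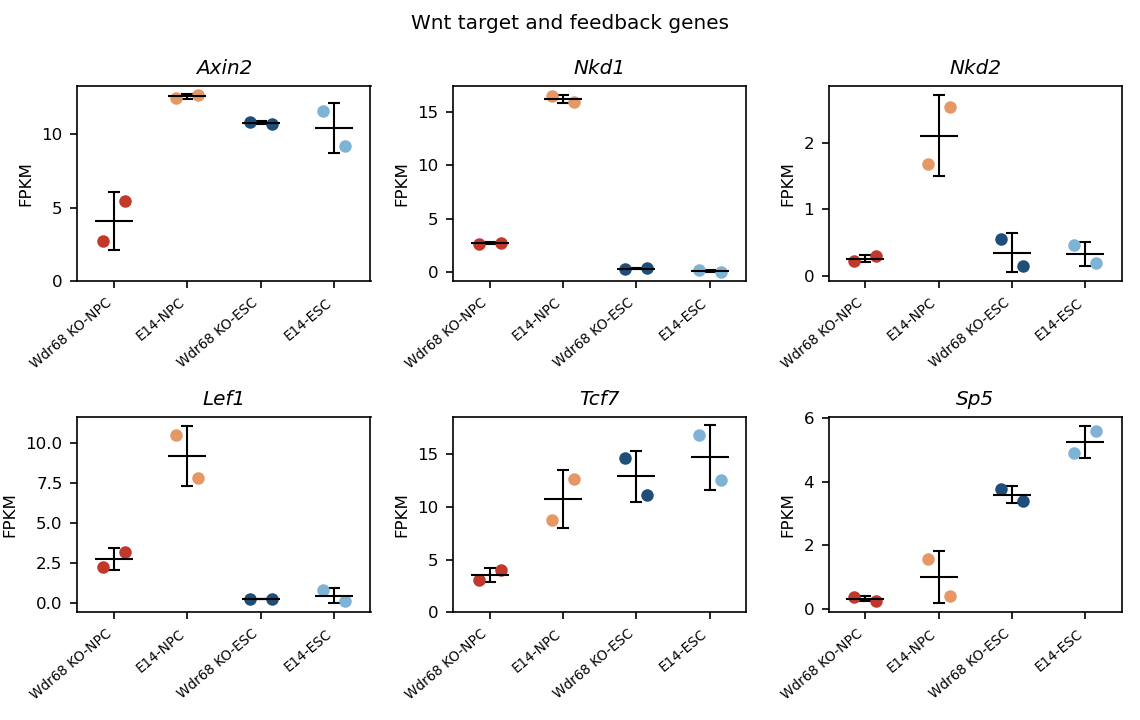
FPKM (vertical axis) of the targets and feedback genes Axin2, Nkd1, Nkd2, Lef1, Tcf7 and Sp5 in each library (points) with the group mean ± SD (n = 2, bar), in knockout NPC, wild-type NPC, knockout ESC and wild-type ESC from left to right. Nkd1 shows the largest fall of the 6 from wild-type to knockout NPC (log2 change -2.21), and Sp5 was not called between these groups. Nkd1, Nkd2 and Lef1 are low in ESC, where Axin2, Tcf7 and Sp5 are not.

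Marker genes of several cell types differed in RNA level between the 2 NPC groups. Of 10 neuron markers all 10 fell in knockout NPC, with a summed FPKM of 14.8 and 20.3 in knockout NPC and 367 and 388 in wild-type NPC. Of 9 tested neural progenitor markers 8 fell (summed FPKM 47.4 and 50.2 in knockout NPC, 289 and 286 in wild-type NPC), and Olig2 was at 0 in both knockout libraries. All 9 tested markers of endothelium and blood rose (862 and 1059 in knockout NPC, 121 and 92.0 in wild-type NPC), among them the embryonic globin Hba-x at 430 and 525 FPKM, against 52.2 and 42.7 FPKM. Gata1, of the same list, was at 0 in wild-type NPC. Of 6 tested mesoderm markers 5 rose (135 and 115 in knockout NPC, 24.1 and 21.0 in wild-type NPC), led by Foxf1 at 67.8 and 59.5 FPKM, against 5.10 and 3.11 FPKM. The early mesoderm genes T, Mixl1 and Mesp1 were at 0 in both knockout NPC libraries and at no more than 0.263 FPKM in either wild-type NPC library, with Mesp1 at 0 in all 8 libraries. Of 8 tested markers of extraembryonic endoderm 4 rose and 1 fell (83.1 and 73.4 in knockout NPC, 40.2 and 33.5 in wild-type NPC), with none at 0 in both libraries of either group. Of 10 markers of feeder fibroblasts and mesenchyme 1 rose and 5 fell (126 and 106 in knockout NPC, 122 and 140 in wild-type NPC), with none at 0 in both libraries of either group. Of 10 ESC markers 2 rose and 2 fell (24.2 and 21.1 in knockout NPC, 52.5 and 46.2 in wild-type NPC), with none at 0 in both libraries of either group. This list shares Sox2 with the neural progenitor list, and the difference between these sums is about that of Sox2 alone (1.15 and 2.47 FPKM in knockout NPC, 30.4 and 29.9 FPKM in wild-type NPC). The part of these cell types in the changes of the Wnt genes was not tested.

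The comparison of knockout and wild-type ESC asks about the state before differentiation. None of the 34 Wnt genes passed in limma, where 0.248% of all genes tested did. At an unadjusted p under 0.05 there were 2, Fzd7 and Sfrp1. Fzd7 stood at 6.20 and 5.55 FPKM in knockout ESC and 2.90 and 3.97 FPKM in wild-type ESC (log2 change 0.64 ± 0.13, adjusted p = 0.162). Sfrp1 stood at 17.8 and 15.8 FPKM in knockout ESC and 20.3 and 20.5 FPKM in wild-type ESC (-0.27 ± 0.10, adjusted p = 0.341). The median log2 change was -0.01 over the 34 genes and -0.01 over all genes tested. With 2 libraries per group these values do not show that the Wnt genes were equal in the 2 genotypes.

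ESC of either genotype expressed few ligands. Of the 15 ligands, 14 were under 1 FPKM in both knockout ESC libraries and 14 in both wild-type ESC libraries, and the exception was Wnt5b, at 5.38 and 4.55 FPKM in knockout ESC and 4.36 and 4.52 FPKM in wild-type ESC. Wnt5b made up 59.4% to 67.7% of the ligand FPKM of an ESC library. The limit given above holds here too: its span overlaps Fbxl14, and whether counting used strand is not given. Among the receptors Fzd5 led, at 21.3 and 18.7 FPKM in knockout ESC and 21.1 and 19.7 FPKM in wild-type ESC, followed by Fzd10 and Fzd7. The targets Axin2, Tcf7 and Sp5 were well above 1 FPKM in all 4 ESC libraries, with Tcf7 at 14.6 and 11.2 FPKM in knockout ESC and 16.9 and 12.5 FPKM in wild-type ESC and Sp5 at 3.78 and 3.40 FPKM in knockout ESC and 4.91 and 5.60 FPKM in wild-type ESC. Nkd1, Nkd2 and Lef1, targets in other settings, stayed under 1 FPKM in all 4.

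NPC were compared with ESC within each genotype to follow the pathway through differentiation. In knockout cells 32 of 34 Wnt genes passed, 26 higher and 6 lower in NPC, where 70.3% of all genes passed, 41.6% higher and 28.8% lower. In wild-type cells 29 of 34 passed, 26 higher and 3 lower, where 72.6% of all genes passed, 41.6% higher and 31.1% lower. The median log2 change of the 34 genes was 1.26 in knockout and 1.65 in wild-type cells, against 0.17 and 0.15 over all genes tested. The filter favours rises here, since 24 of the 34 were tested on their NPC level alone. In both genotypes all tested ligands other than Wnt5b rose. The calls of Wnt1 and Wnt7b in knockout cells rested on levels of 1.30 FPKM or less, with log2 changes of 0.78 ± 0.25 (adjusted p = 0.0263) and 0.40 ± 0.14 (adjusted p = 0.0374). That of Wnt1 was lost without knockout ESC 1 or 2 or knockout NPC 2 (adjusted p = 0.0625 to 0.0887), and that of Wnt7b when any 1 ESC library or knockout NPC library was left out (adjusted p = 0.0506 to 0.189) and under median-ratio scaling (adjusted p = 0.0565) and quantile normalization (adjusted p = 0.806).

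The receptor set turned over on differentiation. Fzd2 rose by a log2 change of 4.16 ± 0.10 in knockout cells (adjusted p = 2.37e-07) and 4.05 ± 0.10 in wild-type cells (adjusted p = 2.1e-07). ESC held only 0.706 and 0.610 FPKM of it in the knockout and 0.499 and 0.587 FPKM in the wild type. Fzd7 rose by 2.1 ± 0.13 in knockout cells (adjusted p = 9.24e-06) and 1.97 ± 0.13 in wild-type cells (adjusted p = 1.13e-05). Fzd5 fell, with log2 changes of -2.96 ± 0.18 in knockout cells (adjusted p = 7.23e-06) and -3.67 ± 0.18 in wild-type cells (adjusted p = 2.55e-06). Wnt5b fell as well, with changes of -1.61 ± 0.17 in knockout cells (adjusted p = 1.25e-04) and -1.29 ± 0.17 in wild-type cells (adjusted p = 3.73e-04). Sfrp1 rose by 2.22 ± 0.10 in knockout cells (adjusted p = 2.06e-06) and 1.61 ± 0.10 in wild-type cells (adjusted p = 7.7e-06). Rspo1 rose by 2.11 ± 0.16 (adjusted p = 2.11e-05) and 1.98 ± 0.16 (adjusted p = 2.58e-05).

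The targets did not follow 1 course. Nkd1 rose in both genotypes, by 1.44 ± 0.12 in knockout cells (adjusted p = 3.24e-05) and 3.90 ± 0.12 in wild-type cells (adjusted p = 4.25e-07). Lef1 rose too, by 1.56 ± 0.26 in knockout cells (adjusted p = 0.00116) and 2.82 ± 0.26 in wild-type cells (adjusted p = 4.84e-05). Axin2 fell in knockout cells (-1.27 ± 0.24, adjusted p = 0.00254), and in wild-type cells it did not pass (0.26 ± 0.24, adjusted p = 0.363). Tcf7 likewise fell in knockout cells (-1.61 ± 0.22, adjusted p = 4.75e-04) and did not pass in wild-type cells (-0.43 ± 0.22, adjusted p = 0.122). Sp5 fell in both, with -1.81 ± 0.26 in knockout cells (adjusted p = 6.03e-04) and -1.72 ± 0.26 in wild-type cells (adjusted p = 7.42e-04). The GSK3 inhibitor was present at the ESC stage and is not listed for the later one in either genotype, so stage and agent cannot be told apart.

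Fzd10 was the member that passed in opposite directions: it fell in knockout cells (-3.07 ± 0.29, adjusted p = 6.66e-05) and rose by 1.10 ± 0.29 in wild-type cells (adjusted p = 0.0108). The rise in wild-type cells was lost without wild-type ESC 2 (adjusted p = 0.0612) or wild-type NPC 1 (adjusted p = 0.0751), and with a pseudocount of 0.1 (adjusted p = 0.0672). Dkk3 rose in both genotypes at low levels, with calls lost without knockout ESC 1 or either knockout NPC library in knockout cells (adjusted p = 0.0736 to 0.127) and without wild-type ESC 1 or wild-type NPC 2 in wild-type cells (adjusted p = 0.0851 and 0.0983). The genes called in 1 genotype alone were not compared by those calls; the test of the difference follows.

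The knockout effect in NPC minus that in ESC tested whether the knockout acted unlike in the 2 stages. Of the 34 Wnt genes 16 passed, 5 higher and 11 lower, where 16.8% of all genes passed, 8.41% higher and 8.39% lower. The 16 include Wnt7b, Frzb and Nkd2, which passed the filter through wild-type NPC alone, and Rspo2, through knockout NPC alone. The filter favours a call of such genes. Fzd10 differed by -4.18 ± 0.41 (adjusted p = 0.0011), Wnt1 by -3.42 ± 0.35 (adjusted p = 0.00135), Nkd1 by -2.45 ± 0.17 (adjusted p = 3.24e-04) and Fzd3 by -1.66 ± 0.19 (adjusted p = 0.00202). In the other direction stood Rspo3 (2.27 ± 0.23, adjusted p = 0.00132), Wnt5a (1.93 ± 0.20, adjusted p = 0.00124) and Fzd4 (1.76 ± 0.19, adjusted p = 0.00172). Axin2 differed by -1.53 ± 0.35 (adjusted p = 0.0254), a call lost without wild-type ESC 2, either wild-type NPC library or either knockout ESC library (adjusted p = 0.0739 to 0.0828). Fzd7, higher in the knockout at both stages by its values, did not differ past the threshold (0.13 ± 0.19, adjusted p = 0.693). For genes near 0 in ESC, such as Wnt1, Wnt5a, Nkd1 and Rspo3, this difference is close to the NPC change itself. The count of 16 fell to 9 without wild-type ESC library 2 and to 10 without wild-type NPC library 2 or knockout ESC library 1.

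Some ligand genes lie side by side in the genome, and their levels were read together. Wnt1 and Wnt10b lie 11.7 kb apart on chromosome 15 (mm9), and Wnt10b was listed at 0 in both knockout NPC libraries, against 0.675 and 1.03 FPKM in wild-type NPC, and at 0 in all ESC libraries. Wnt3 and Wnt9b lie 24.4 kb apart on chromosome 11, with Wnt9b at 0.638 and 1.46 FPKM in knockout NPC and 1.49 and 1.60 FPKM in wild-type NPC. Wnt9a and Wnt3a, 16.2 kb apart on chromosome 11, were both lower by their values in knockout NPC. Wnt6 and Wnt10a, 6.70 kb apart on chromosome 1, differed in level, with Wnt10a under 0.6 FPKM in every library. The neighbours were not tested as pairs.

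The rest of the pathway was read from 87 other genes, of which 74 were tested. In knockout against wild-type NPC 11 rose, 25 fell and 38 did not pass, so that 48.6% passed beside 27.4% of all genes tested, with a median log2 change of -0.06. Of 9 other ligands, agonists and antagonists 6 fell and none rose, and of 8 co-receptors and genes of receptor turnover 1 rose and 4 fell. The 18 cytoplasmic transducers held 6 rises and 3 falls, the 12 nuclear factors 3 rises and 2 falls, and the 14 alternative receptors and planar polarity genes 1 rise and 5 falls. Of 15 further reported targets 1 rose and 6 fell, and of the 2 genes of ligand secretion 1 fell. Some genes stand in more than 1 list, so the counts by list add up to more than the totals.

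Ctnnb1, which encodes beta-catenin itself, was higher in knockout NPC, where 5 of the 6 target genes above were lower. Of the 15 further reported targets 1 rose, 6 fell and 8 were not called, with a median log2 change of -0.03. Calls made up 46.7% of these targets, beside 27.4% of all genes tested (14.7% higher and 12.7% lower). They were not tested as a set. Ctnnb1 stood at 436 and 419 FPKM in knockout NPC, 264 and 281 FPKM in wild-type NPC, 166 and 163 FPKM in knockout ESC, and 159 and 176 FPKM in wild-type ESC (log2 change 0.65 ± 0.07, adjusted p = 7.76e-04, between the NPC groups). RNA levels do not measure the amount or place of the protein, by which the pathway acts. Tle4, a corepressor that binds TCF factors, stood at 11.0 and 10.1 FPKM in knockout NPC and 4.39 and 4.68 FPKM in wild-type NPC (1.06 ± 0.09, adjusted p = 2.07e-04), and Dact2, a Dishevelled-binding protein, at 7.96 and 7.82 FPKM in knockout NPC and 2.93 and 3.62 FPKM in wild-type NPC (1.06 ± 0.16, adjusted p = 0.00303). Among genes with a mean of 5 FPKM or more in the higher group, the 3 largest falls were those of Dll1, Celsr2 and Nrcam. Dll1, a Notch ligand, stood at 0.0801 and 0.275 FPKM in knockout NPC and 12.0 and 10.5 FPKM in wild-type NPC (-3.38 ± 0.13, adjusted p = 1.97e-05). Celsr2, a planar polarity cadherin, stood at 0.731 and 1.61 FPKM in knockout NPC and 23.4 and 19.1 FPKM in wild-type NPC (-3.38 ± 0.24, adjusted p = 1.13e-04). Nrcam, a neuronal adhesion molecule, stood at 0.830 and 0.849 FPKM in knockout NPC and 6.93 and 6.29 FPKM in wild-type NPC (-2.05 ± 0.11, adjusted p = 4.77e-05).

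None of the 74 other genes passed between knockout and wild-type ESC in limma, and 11 had an unadjusted p under 0.05. In NPC against ESC 44 rose and 17 fell in knockout cells, and 50 rose and 13 fell in wild-type cells, which is 82.4% and 85.1% of the 74, beside 70.3% and 72.6% of all genes tested. Wls, which carries Wnt proteins to the cell surface, stood at 51.5 and 51.4 FPKM in knockout NPC, 39.0 and 39.4 FPKM in wild-type NPC, 4.57 and 3.26 FPKM in knockout ESC, and 3.57 and 1.90 FPKM in wild-type ESC. It rose by 3.43 ± 0.22 in knockout cells (adjusted p = 8.85e-06) and 3.46 ± 0.22 in wild-type cells (adjusted p = 7.63e-06). Cdx1, a homeobox target of Wnt and retinoic acid in the hind embryo, was listed at 0 in knockout NPC and at 0.0520 and 0.0709 FPKM in wild-type NPC, against 30.0 and 28.1 FPKM in knockout ESC and 21.6 and 20.7 FPKM in wild-type ESC. Notum, an enzyme that removes the lipid from Wnt proteins, stood at 0.474 and 0.843 FPKM in knockout NPC, against 9.63 and 10.6 FPKM in knockout ESC (-2.75 ± 0.14, adjusted p = 3.21e-06). Dact1 (3.12 ± 0.13, adjusted p = 1.29e-06) and Dact3 (2.65 ± 0.13, adjusted p = 3.07e-06), relatives of Dact2, rose in knockout cells. Tbx3, a T-box factor of the ESC network, fell in knockout cells (-2.04 ± 0.10, adjusted p = 3.08e-06) and in wild-type cells (-2.28 ± 0.10, adjusted p = 1.73e-06). Prickle3, a planar polarity gene, fell in wild-type cells (-2.22 ± 0.23, adjusted p = 1.04e-04). Notum, Dact1, Dact3 and Prickle3 are named by rank in 1 genotype, not for a contrast between genotypes. Their log2 changes, knockout over wild-type NPC, were -0.74 ± 0.14, 0.41 ± 0.13, 0.46 ± 0.13 and 0.75 ± 0.23, in that order. Those between the ESC groups lay from -0.02 to 0.05, so the direction from ESC to NPC was the same in both genotypes. The knockout effect differed between the stages for 24 of these genes (32.4%), with 7 higher in NPC and 17 lower, beside 16.8% of all genes tested, 8.41% higher and 8.39% lower. Lrp5, a Wnt co-receptor, stood at 7.83 and 9.09 FPKM in knockout NPC, 6.39 and 6.66 FPKM in wild-type NPC, 3.44 and 3.36 FPKM in knockout ESC, and 5.76 and 5.00 FPKM in wild-type ESC (difference 0.86 ± 0.17, adjusted p = 0.0146).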

How the data were processed

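RNA was measured by directional poly(A) sequencing in 8 libraries, 2 per group. The authors deposited FPKM per gene and library with a 95% interval, made with TopHat2 2.1.1, Cufflinks 2.2.1 and mm9, per the submitters' processing notes. No counts were used, and fragment numbers were inferred from the intervals, a relation that holds for genes with 1 start site. Of 24318 symbols, 12 with a failed estimate were left out, and the entries of 285 with several were summed. The filter (1 FPKM or more in 2 or more libraries) left 13318 genes. limma 3.58.1 (R 4.3.3) was fitted to log2(FPKM + 1) with a mean for each of the 4 groups and a trended variance, which leaves 4 residual degrees of freedom. Tests were two-sided, and the adjusted p is Benjamini-Hochberg over all genes tested. The code was tested on simulated data.

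The members and gene lists were chosen with earlier results of these data known. Members were named with every library's value where called or at an FPKM of at least 5. Other pathway genes were named where among the 3 largest rises or falls, with a mean of 5 FPKM or more in the higher group. The alternatives left out each library in turn, removed the filter or raised it to 5 FPKM, used a pseudocount of 0.1, scaled by median ratio or quantiles, took the highest entry per symbol, fitted only the groups compared, dropped the variance trend or added the replicate as a block.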

Additional observations from a re-analysis of the deposited data

Results flagged for a closer look

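The knockout effect differed between the stages, by limma's test of the difference, for 16 Wnt genes. The values are log2 changes, knockout over wild type, in NPC minus those in ESC. For genes near 0 in ESC, such as Wnt1, Wnt5a, Wnt7b, Frzb, Nkd1 and Rspo3, the difference is close to the NPC change itself and adds little to it. Wnt7b, Frzb and Nkd2 also passed the filter through wild-type NPC alone, and Rspo2 through knockout NPC alone. Among the ligands the difference was -3.42 for Wnt1, -0.88 for Wnt4, 1.93 for Wnt5a and -1.30 for Wnt7b. Among the receptors it was -1.66 for Fzd3, 1.76 for Fzd4, -0.78 for Fzd8 and -4.18 for Fzd10. Among the inhibitors and R-spondins it was 0.61 for Sfrp1, -1.59 for Frzb, 0.97 for Rspo2 and 2.27 for Rspo3. Among the targets it was -1.53 for Axin2, -2.45 for Nkd1, -1.30 for Nkd2 and -1.18 for Tcf7. Of these, 9 passed whichever library was left out (Wnt1, Wnt5a, Wnt7b, Fzd3, Fzd4, Fzd10, Frzb, Rspo3 and Nkd1). The calls of Wnt4, Fzd8, Sfrp1, Rspo2, Axin2, Nkd2 and Tcf7 were each lost when any of 5 to 7 of the 8 libraries was left out, with an adjusted p of up to 0.135 (Tcf7, without knockout NPC library 1). Groups of 2 libraries are too small for a search for single outlying libraries.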

How the results depend on the processing

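No value changed direction under any alternative while called. Between knockout and wild-type NPC 24 Wnt genes passed, and 17 to 24 did under the settings that keep all libraries and 18 to 22 with 1 library left out; 17 genes passed in every fit that left out 1 library, and 16 under every alternative that tested them. No Wnt gene passed between the ESC groups in any fit. With an FPKM minimum of 5, only 20 Wnt genes were tested, so 20 in place of 32 passed from ESC to NPC in knockout cells and 18 in place of 29 in wild-type cells. With 1 library left out these 2 counts were 29 to 33 and 28 to 29. The difference between stages is the least stable count: 16 genes passed, 9 without a filter (24306 genes tested), and 9 to 13 with 1 library left out. The differences between libraries 1 and 2 correlated little between groups (r -0.05 to 0.18). This does not settle whether same-numbered libraries were paired or shared a batch, and the main fit used no pairing. With the replicate block 24 and 0 genes passed between the genotypes in NPC and ESC. Between the stages 32 and 29 passed in knockout and wild-type cells, and 14 for the difference. Other scalings moved the median of all genes from ESC to NPC by -0.15 and -0.17 (knockout) and -0.12 and -0.16 (wild type), under median-ratio scaling and quantile normalization. They also changed the balance of calls over all genes: in wild-type NPC against ESC 5538 genes were higher and 4137 lower, but 4953 and 4735 under median-ratio scaling and 4578 and 4735 under quantile normalization. In knockout against wild-type NPC 1962 were higher and 1686 lower, but 1553 and 1794 under median-ratio scaling. Genes near an FPKM of 1 rest on a median of 21.7 to 29.0 fragments, which limits what the 2 libraries of a group can show.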
